A study of Mus musculus with 9 samples.

Results

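The genes that copy DNA were followed in a mouse T cell lymphoma driven by MYCN and in normal CD4 T cells. They were chosen by name: 55 symbols that cover the origin recognition complex, the MCM helicase and its loaders, the factors that fire origins, and the polymerases, clamp, ligase and fork proteins that elongate DNA. The count table holds 56 rows with these symbols among 46078 genes, because Pold4 is listed under 2 identifiers. The second Pold4 row has 0 counts in all 9 libraries. Of the 56 rows, 15 belong to licensing, 10 to firing, 29 to elongation, and 2 are the related helicase genes Mcm8 and Mcm9.

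Transcript 3′ ends were sequenced from total RNA of 6 lymphomas and 3 controls, each library being 1 sample. The lymphomas are MYCN-induced T cell lymphoma cells of thymic origin and are numbered 34, 53, 56, 70, 72 and 86 as on their labels. The controls are CD4+ T cells from the spleen, numbered 1, 2 and 3. All 9 samples carry the strain label C57BL/6J. The promoter that drives MYCN, the age of the animals and any pooling are not given in the sources used here, and neither is whether the libraries came from separate animals, so p-values measure only the spread between these samples. Tissue of origin and group coincide in this design and cannot be told apart. In bulk RNA, a larger share of cells that express a gene and more of its RNA per cell cannot be told apart either.

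A replication origin is first licensed, when the origin recognition complex (ORC) together with Cdc6 and Cdt1 loads the ring-shaped Mcm2 to Mcm7 helicase onto DNA, and geminin (Gmnn) then blocks Cdt1 so that no origin is licensed again in the same cycle. Firing follows when the Cdc7-Dbf4 kinase and further factors turn the loaded ring into an active helicase with Cdc45 and the GINS complex. During elongation, primase and polymerase alpha start each new strand, polymerases epsilon and delta extend it on the PCNA clamp, and Fen1 and Lig1 seal the fragments of the lagging strand. Resting T cells are in G0, where many of these genes are known to be little transcribed, and E2F factors are known activators of many of them on entry into the cell cycle.

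Reads counted in genes ranged from 11170704 to 15769679 in lymphoma and from 8099960 to 10808828 in CD4, so a gene is measured with less precision in the controls. Reads that fell in no annotated gene made up 16.6 to 22.5% of all reads in lymphoma and 30.4 to 33.3% in CD4, and the part of that difference in the results was not tested. Values are given as CPM, the count scaled to a common library size (edgeR's CPM on TMM-scaled library sizes). T cell markers were present in both groups, with a summed level of 2253 to 4335 CPM over 10 genes in lymphoma and 2939.9 to 3098 CPM in CD4. Cd4 itself ranged from 6.04 to 71.9 CPM in lymphoma and stood at 263, 257 and 199 CPM in CD4 1, 2 and 3. All 10 B cell markers were lower in lymphoma, where their sum was 6.21 to 12.5 CPM against 1119 to 1411 CPM in CD4, with no marker at 0 in every library of a group. Myeloid markers summed to 69.0 to 2172 CPM in lymphoma and 796 to 1015 CPM in CD4. The highest sum was that of lymphoma 56, with S100a8 at 1035 and S100a9 at 989 CPM. By the edgeR test 4 of the 10 myeloid markers were lower in lymphoma (Ctss, Csf1r, Adgre1 and Itgam) and 0 higher. Over 8 erythroid markers the sums were 12.2 to 889 CPM and 100.1 to 359 CPM, and over 12 stromal and thymic epithelial markers 97.8 to 181 CPM and 216 to 235 CPM, in the same order of groups. Of the latter, Krt5, Krt8, Foxn1 and Dcn were at 0 in every CD4 library and Cdh5 in every lymphoma. Epcam and Dcn were called higher and Pecam1 lower. The part of the B cell list and of these other markers in the replication results was not tested.

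Nearly the whole replication machinery was higher in lymphoma. Of the 56 rows, 54 passed the filter on low counts, Fen1 and the second Pold4 row being the exceptions. Of these 54, 47 rose in lymphoma by edgeR's quasi-likelihood test with a Benjamini-Hochberg adjusted p under 0.05, against 24.7% of all 15401 genes tested. Only Pold4, the smallest subunit of polymerase delta, fell, where 21.9% of all genes were lower. The 6 members past the filter that did not reach the threshold were Orc3, Orc4, Pole4, Rpa1, Rpa3 and Mcm9. A rise of at least 2-fold was met by 45 members (17.9% of all genes) and one of at least 4-fold by 31 (8.29%). All 6 lymphomas lay above all 3 CD4 libraries for 46 members, which held for 22.6% of all genes. The median log2 fold change was 2.15 over the 54 members and 0.04 over all genes tested.

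**Figure D1:**
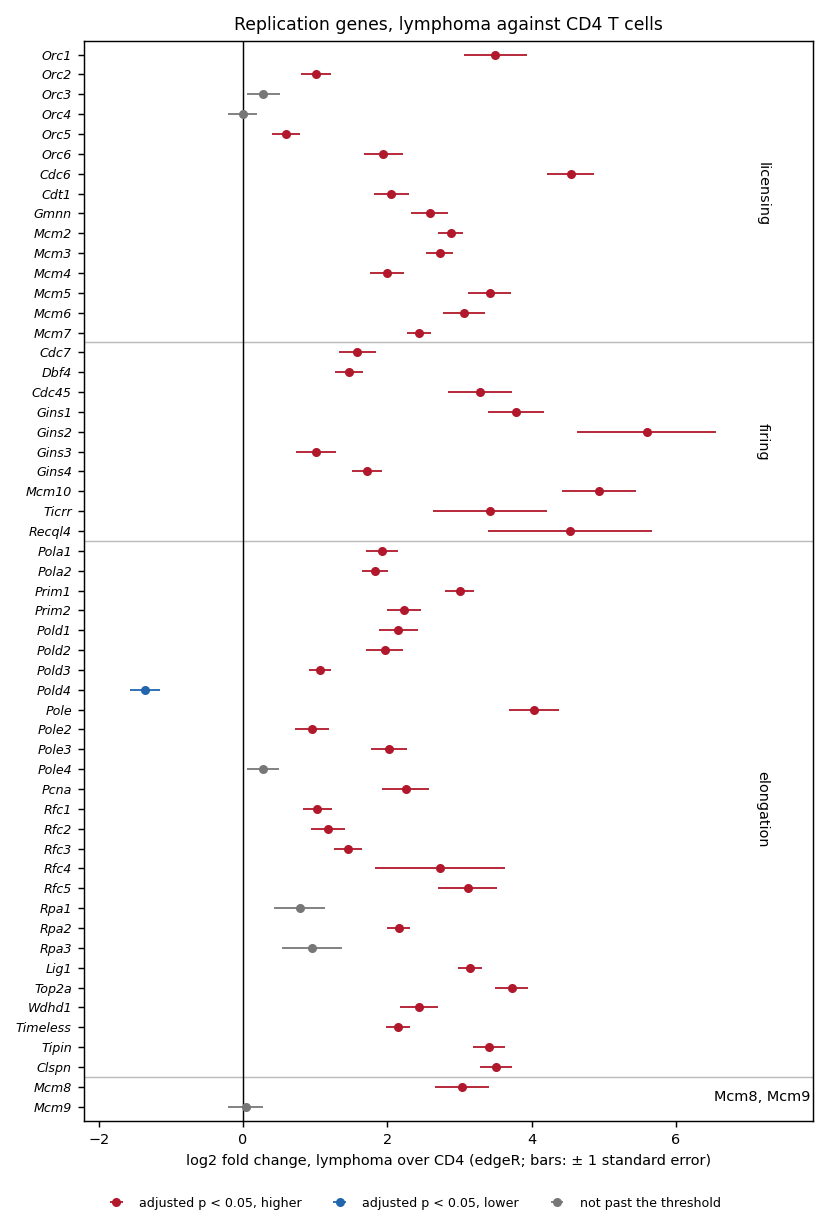
Log2 fold change of lymphoma over CD4 for the 54 replication genes tested (x axis, points with bars of 1 standard error from the edgeR fit), ordered from licensing at the top through firing and elongation to Mcm8 and Mcm9 (y axis). Red points passed an adjusted p of 0.05 and were higher in lymphoma (47 genes), the blue point passed and was lower (Pold4), and the 6 grey points did not pass.

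The members rose together, so their promoters were compared. RefSeq promoter windows (build GRCm38.p6, from 250 bases before to 50 bases after a start) matched 45 of the 55 symbols, with 55 windows in all. A motif of E2F factors, searched as TTTGGCGC, TTTCCCGC, TTTCGCGC or TTTGCCGC on both strands, was found in 34.5% of the member windows, in 3.78% of the 12554 windows of tested genes and in 2.26% of all 32851 windows. These 4 spellings can overlap one another, as in the Mcm5 and Mcm6 stretches. By gene, 16 of the 37 members that rose and have a window held a match, as did 2 of the 6 that did not reach the threshold (Orc3 and Pole4), and Pold4 held none. The E-box bound by MYC proteins, CACGTG, was in 12.7% of member windows, 9.64% of those of tested genes and 7.15% of all. The CCAAT box, searched on both strands, was in 52.7%, 37.3% and 37.4%. The cell cycle homology region, TTTGAA on both strands, was in 16.4%, 12.3% and 17.9% in the same order. By step, the E2F letters were in 8 of 17 licensing windows, 1 of 7 firing windows and 9 of 29 elongation windows. In the same order of steps, the E-box was in 1, 0 and 5 of these windows and the CCAAT box in 11, 4 and 12. TTTGAA was in 1 licensing window, 5 firing windows (from 4 genes) and 3 elongation windows. With the bases after the start left out, it was in 3 of the 7 firing windows. These are matches of letters and not measured binding. With the 50 bases after the start left out, the E2F share was 20.0% of member windows, 3.14% of those of tested genes and 1.86% of all windows.

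The 160 bases just before the start are printed for 8 members, to set risers with a match (Orc1, Cdc6, Mcm5, Mcm6 and Pola1) beside a gene with a match that did not reach the threshold (Pole4, the first of its 2 windows), the gene that fell (Pold4) and a relative of the helicase genes whose groups overlapped, with no match there (Mcm9). All are 5′ to 3′ along the gene, with E2F matches in capitals. The start is that of the RefSeq window. In the GENCODE M21 annotation the stretches of Cdc6, Pole4 and Mcm9 lie inside the gene, and that of Orc1 does in part.
Orc1, chr4:108579294-108579453, plus strand: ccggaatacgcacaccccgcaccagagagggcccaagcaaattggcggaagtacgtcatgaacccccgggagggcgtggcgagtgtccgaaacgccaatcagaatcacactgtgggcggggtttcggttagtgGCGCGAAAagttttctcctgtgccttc
Cdc6, chr11:98907991-98908150, plus strand: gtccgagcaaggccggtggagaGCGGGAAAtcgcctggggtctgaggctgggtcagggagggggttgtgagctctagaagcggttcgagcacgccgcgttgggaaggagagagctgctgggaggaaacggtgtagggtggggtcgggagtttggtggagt
Mcm5, chr8:75109349-75109508, plus strand: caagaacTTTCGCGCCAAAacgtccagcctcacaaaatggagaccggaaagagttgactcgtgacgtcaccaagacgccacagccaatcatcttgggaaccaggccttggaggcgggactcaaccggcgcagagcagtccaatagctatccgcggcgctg
Mcm6, chr1:128359706-128359865, minus strand: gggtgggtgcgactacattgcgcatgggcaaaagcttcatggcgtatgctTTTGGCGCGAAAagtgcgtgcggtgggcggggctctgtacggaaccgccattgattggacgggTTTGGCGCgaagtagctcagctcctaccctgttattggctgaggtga
Pola1, chrX:93632156-93632315, minus strand: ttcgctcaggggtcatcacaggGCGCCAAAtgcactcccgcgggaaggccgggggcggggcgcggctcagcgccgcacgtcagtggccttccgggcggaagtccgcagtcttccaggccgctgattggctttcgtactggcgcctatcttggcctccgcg
Pole4, chr6:82652866-82653025, minus strand: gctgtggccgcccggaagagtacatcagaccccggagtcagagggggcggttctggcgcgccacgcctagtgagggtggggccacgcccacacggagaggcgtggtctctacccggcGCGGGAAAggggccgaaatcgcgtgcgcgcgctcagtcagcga
Pold4, chr19:4231733-4231892, plus strand: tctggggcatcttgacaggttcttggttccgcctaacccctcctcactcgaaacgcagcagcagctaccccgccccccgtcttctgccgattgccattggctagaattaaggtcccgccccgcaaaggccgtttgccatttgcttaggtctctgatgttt
Mcm9, chr10:53629958-53630117, minus strand: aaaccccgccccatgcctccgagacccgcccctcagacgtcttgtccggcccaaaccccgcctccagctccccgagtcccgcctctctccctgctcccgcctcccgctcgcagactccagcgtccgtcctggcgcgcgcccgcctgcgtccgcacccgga

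**Figure D2:**
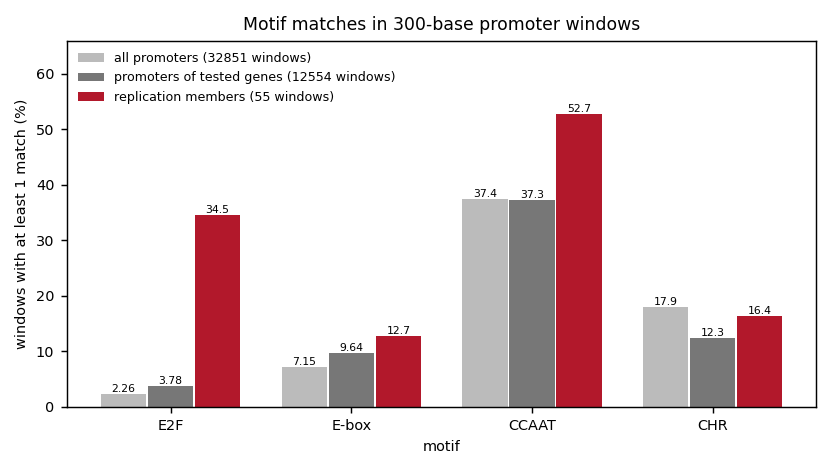
Share of 300-base RefSeq promoter windows with at least 1 match to each of 4 motifs (y axis, percent) for all promoters (light grey), promoters of tested genes (dark grey) and the replication genes (red). The widest gap is at the E2F motif, found in 34.5% of the replication windows, 3.78% of those of tested genes and 2.26% of all windows.

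Among licensing factors, 13 of 15 genes rose and the median log2 fold change was 2.44, but ORC was split. Orc1, the ORC subunit known to be made anew in each cycle (ENSMUSG00000028587, GRCm38 as annotated in GENCODE M21, chr4:108579423-108614833, plus strand), ranged from 18.7 to 33.1 CPM in lymphoma with a median of 24.0, and stood at 0.954, 4.08 and 1.65 CPM in CD4 1, 2 and 3. All lymphomas lay above the highest control, and the log2 change of 3.50 (SE 0.439; adjusted p in edgeR, 6.03e-05) was the largest of the complex. It was 4.25 without CD4 2, the highest of the controls. Orc6, which helps recruit the helicase, averaged 17.1 ± 6.13 CPM (SD, n = 3) in CD4 and 66.2 ± 12.1 CPM (SD, n = 6) in lymphoma, and rose by 1.95 (SE 0.269) on the log2 scale.

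The other 4 ORC subunits had smaller log2 fold changes, from -0.01 to 1.01. Orc2 ranged from 27.6 to 42.9 CPM in lymphoma (median 35.4), against 19.9, 15.1 and 18.2 CPM in CD4, a log2 change of 1.01 (SE 0.203). Orc5 rose by 0.60 (SE 0.189) at an adjusted edgeR p of 0.0221, a call that was lost without CD4 1 (edgeR adjusted p 0.0770), without CD4 2 (0.0871) and with lymphomas 34, 70 and 72 averaged (0.0538). Orc3 ranged from 31.2 to 63.1 CPM in lymphoma (median 60.6) and stood at 52.4, 43.6 and 38.7 CPM in CD4, where lymphoma 53 was the lowest of all 9 libraries. Its log2 change of 0.28 (SE 0.230; adjusted p in edgeR, 0.342) did not pass, though it did without lymphoma 53 (0.40, edgeR adjusted p 0.0466). Orc4, an ATP-binding subunit, had overlapping groups: lymphomas lay between 30.2 and 35.7 CPM (median 32.6), inside the span of the controls at 21.8, 39.7 and 37.2 CPM. The log2 fold change of Orc4 was -0.01 (SE 0.205) at an adjusted edgeR p of 0.98, and its sign turned in 10 of 17 alternative fits. The median of the 6 ORC genes was 0.80, against 2.80 for the 6 subunits of the helicase they load.

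The helicase loaders rose strongly. Cdc6, an ATPase that joins ORC at the origin (ENSMUSG00000017499, chr11:98907801-98923940, plus strand), ranged from 78.8 to 114 CPM in lymphoma (median 93.2) and stood at 5.82, 1.92 and 4.13 CPM in CD4. Every lymphoma exceeded the highest control by more than 10-fold in CPM, and the log2 change of 4.54 (SE 0.329; adjusted p in edgeR, 1.11e-06) was the largest of the licensing group. Cdt1, which escorts the helicase to DNA, ranged from 153 to 251 CPM (median 180.4), against 43.5, 33.0 and 60.5 CPM in CD4. The groups of Cdt1 did not overlap and its log2 fold change was 2.05 (SE 0.242). Its inhibitor Gmnn also rose, from 12.2, 17.0 and 13.7 CPM in CD4 to between 55.9 and 110.2 CPM (median 84.4) in lymphoma, with a log2 change of 2.59 (SE 0.256; adjusted p in edgeR, 1.06e-05). Lymphoma 53 was the lowest of the 6 for Gmnn.

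All 6 genes of the replicative helicase rose, with log2 fold changes from 1.99 for Mcm4 to 3.42 for Mcm5. Mcm5 (ENSMUSG00000005410, chr8:75109569-75128439, plus strand) ranged from 203 to 408 CPM in lymphoma (median 276) and stood at 37.4, 24.0 and 19.6 CPM in CD4. The lowest lymphoma was thus more than 5-fold above the highest control. Mcm4 lay between 109 and 238 CPM (median 177), against 49.4, 42.1 and 44.7 CPM in CD4, with lymphoma 53 lowest. Mcm2 ranged from 170.2 to 221 CPM (median 181) and was even across the controls at 25.5, 24.7 and 27.7 CPM, with a log2 change of 2.88 (SE 0.173; adjusted p in edgeR, 3.54e-07). Mcm3 rose by 2.73 (SE 0.187), Mcm6 by 3.06 (SE 0.295) and Mcm7 by 2.44 (SE 0.166) on the log2 scale. Lymphoma 86 was the highest of the lymphomas for all 6 subunits.

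Mcm8 and Mcm9 form a separate helicase with known roles in homologous recombination and are not part of the ring loaded at origins. Mcm8 rose from 2.48, 1.92 and 3.94 CPM in CD4 to between 15.3 and 35.0 CPM (median 22.1) in lymphoma, with a log2 change of 3.04 (SE 0.372; adjusted p in edgeR, 5.11e-05). Mcm9 (ENSMUSG00000058298, chr10:53536315-53630439, minus strand) did not follow: its lymphomas ranged from 14.2 to 22.0 CPM (median 18.0) and its controls were 12.3, 18.8 and 20.5 CPM. The groups overlapped and the log2 fold change of Mcm9 was 0.04 (SE 0.243), with an adjusted edgeR p of 0.914. Its sign turned in 7 of 17 alternative fits, RLE and upper quartile scaling among them.

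**Figure D3:**
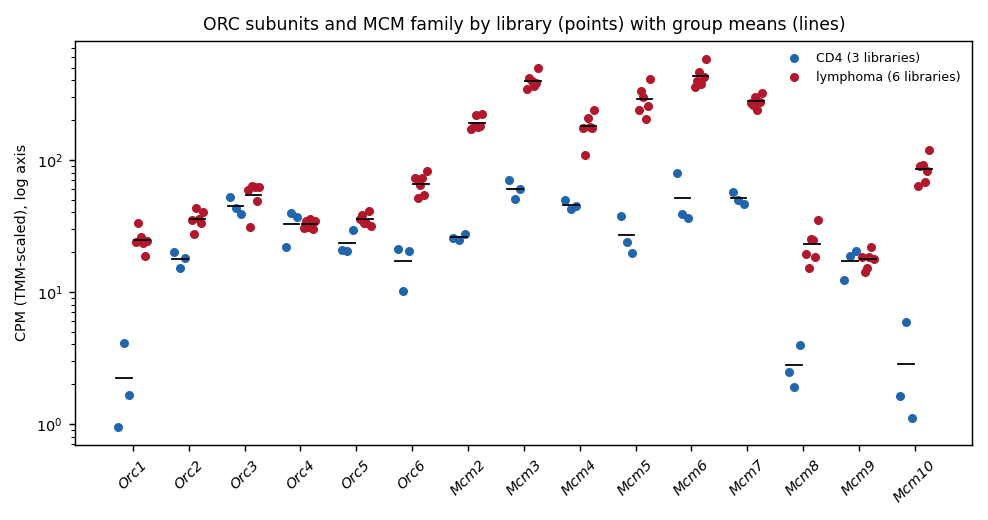
CPM of the 6 ORC genes and of the MCM family (x axis) on a log axis (y axis), with 1 point per library (blue, 3 CD4 libraries; red, 6 lymphomas) and a line at each group mean. The groups overlap at Orc3, Orc4 and Mcm9 and lie apart at the other genes.

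All 10 firing factors rose, with a median log2 fold change of 3.36. The median of the 2 kinase subunits, 1.53, was below that of the 6 genes for Cdc45, GINS and Mcm10, 3.54. The catalytic kinase subunit Cdc7 ranged from 52.1 to 96.3 CPM in lymphoma (median 65.1) and stood at 26.2, 26.5 and 18.8 CPM in CD4, a log2 change of 1.59 (SE 0.250). The activating subunit Dbf4 ranged from 176 to 284 CPM (median 226), against 68.2, 77.9 and 102 CPM, a log2 change of 1.47 (SE 0.198). For both genes lymphoma 53 was lowest and lymphoma 72 highest, with Cdc7 at 96.3 CPM in lymphoma 72 and 93.2 CPM in lymphoma 70.

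Mcm10, a scaffold needed to activate the helicase, ranged from 63.6 to 119 CPM (median 86.5), against 1.62, 5.88 and 1.10 CPM in CD4. Its log2 change of 4.94 (SE 0.514; adjusted p in edgeR, 2.04e-05) became 5.98 without CD4 2, the highest control. Cdc45, which binds the ring as a helicase cofactor, rose by 3.29 (SE 0.449), and by 4.15 without CD4 1, the control with 8.78 CPM. The GINS subunits, which complete the active helicase, spread widely. Gins1 rose by 3.78 (SE 0.384) and Gins4 by 1.72 (SE 0.207) on the log2 scale. Gins3 ranged from 38.8 to 51.3 CPM (median 46.1) and the controls from 11.3 to 32.8 CPM, a log2 change of 1.01 (SE 0.278) at an adjusted edgeR p of 0.011. Gins2 (ENSMUSG00000031821, chr8:120578633-120589304, minus strand) drew 171, 37, 196, 175, 152 and 272 reads across the lymphomas, in the order of their labels, and 0, 0 and 7 across the controls. Its fitted log2 fold change of 5.60 (SE 0.964) rests on the single control with counts and became 10.23 without CD4 3, when both remaining controls were at 0.

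Ticrr, which links kinase signals to helicase activation, had 0 counts in CD4 1 and 4.08 and 3.30 CPM in CD4 2 and 3. In lymphoma it ranged from 20.0 to 39.7 CPM (median 23.9), a log2 change of 3.43 (SE 0.792) with an adjusted edgeR p of 0.00479. Recql4, a RecQ helicase with a role in initiation, was barely covered, with 11, 24, 23, 16, 22 and 47 counts in the 6 lymphomas and 0, 0 and 2 in CD4. Since all controls were at or under 3 counts, only a bound can be given: the lymphoma mean was at least 4.81-fold higher than 3 counts in the shallowest control library. Its fitted log2 fold change of 4.53 depends on the prior count and is no bound. With Recql4 at that bound the median log2 fold change of the firing genes was 2.78.

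In elongation, 23 of 27 tested genes rose, 1 fell and 3 did not reach the threshold, with a median log2 fold change of 2.15. Polymerase alpha and primase, which lay down the first stretch of each fragment, rose in all 4 genes. The primase subunit Prim1 ranged from 91.4 to 138 CPM in lymphoma (median 112), against 13.2, 12.2 and 16.1 CPM in CD4, with a log2 change of 3.0 (SE 0.206; adjusted p in edgeR, 7.33e-07). Pola2, the regulatory subunit of polymerase alpha, ranged from 58.6 to 80.1 CPM (median 65.7) and stood at 18.8, 20.6 and 18.5 CPM in CD4, a log2 change of 1.83 (SE 0.179). Pola1, the catalytic subunit, rose by 1.93 (SE 0.220) and the other primase subunit Prim2 by 2.24 (SE 0.234).

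Polymerase delta, which mainly copies the lagging strand, changed in opposite directions within 1 enzyme. Its catalytic subunit Pold1 ranged from 81.6 to 171 CPM in lymphoma (median 109) and stood at 18.0, 29.4 and 30.6 CPM in CD4, with a log2 change of 2.15 (SE 0.271; adjusted p in edgeR, 6.12e-05). Pold2 rose by 1.96 (SE 0.256) and Pold3 by 1.06 (SE 0.155). Pold4 (ENSMUSG00000024854, chr19:4231899-4233634, plus strand), the accessory subunit that is known to be degraded after DNA damage, ranged from 11.1 to 17.7 CPM in lymphoma (median 13.6), below every control at 39.3, 31.1 and 38.3 CPM. It fell by 1.36 on the log2 scale (SE 0.205, edgeR adjusted p 2.30e-04), and it was lower in 6 of 6 lymphomas. Another annotated gene on the same strand shares 16.8% of the last 500 exon bases of Pold4, and the part of that overlap in the result was not tested.

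Polymerase epsilon, the leading strand enzyme, was uneven too. Its catalytic subunit Pole (ENSMUSG00000007080, chr5:110286306-110337474, plus strand) ranged from 103 to 148 CPM in lymphoma (median 105) and stood at 7.25, 10.9 and 3.49 CPM in CD4, with a log2 change of 4.03 (SE 0.347; adjusted p in edgeR, 3.88e-06). Pole2 ranged from 19.5 to 37.3 CPM (median 32.5), against 18.6, 13.4 and 15.3 CPM, and rose by 0.95 (SE 0.238). The histone-fold subunit Pole3 rose by 2.02 (SE 0.248). Its partner Pole4 ranged from 59.1 to 72.9 CPM in lymphoma (median 66.4) and from 34.8 to 77.3 CPM in the controls, so the groups overlapped. The log2 fold change of Pole4 was 0.27 (SE 0.221) with an adjusted edgeR p of 0.339, and 0.61 without CD4 1, the highest library of all for this gene (edgeR adjusted p 0.0370).

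The sliding clamp Pcna averaged 30.1 ± 14.7 CPM (SD, n = 3) in CD4 and 144 ± 37.9 CPM (SD, n = 6) in lymphoma, and rose with a log2 change of 2.25 (SE 0.326; adjusted p in edgeR, 1.71e-04). All 5 subunits of the clamp loader rose. Rfc1, the large subunit, ranged from 248 to 450.1 CPM in lymphoma (median 346), against 153, 173 and 188 CPM in CD4, a log2 change of 1.03 (SE 0.199). Rfc5 ranged from 70.7 to 193 CPM (median 81.7), where lymphoma 53 stood far above the others, and the controls were 15.9, 7.44 and 10.8 CPM. The log2 fold change of Rfc5 was 3.11 (SE 0.405), and those of Rfc2 and Rfc3 were 1.18 (SE 0.237) and 1.45 (SE 0.190). Rfc4 was thinly covered, with 130, 32, 143, 164, 129 and 255 counts in the lymphomas and 0, 25 and 16 in CD4. Lymphoma 53 at 2.92 CPM lay below CD4 2 at 3.0 CPM. The log2 change of 2.73 (SE 0.896; adjusted p in edgeR, 0.0266) of Rfc4 was not past the threshold without CD4 3 (edgeR adjusted p 0.0844) and became 3.72 without CD4 2.

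RPA coats single-stranded DNA at the fork, and its 3 genes differed. Rpa2 ranged from 221 to 294 CPM in lymphoma (median 241), far from the controls at 56.1, 56.6 and 55.7 CPM, with a log2 change of 2.16 (SE 0.164; adjusted p in edgeR, 1.59e-06). Rpa1, the large subunit, ranged from 64.4 to 241 CPM (median 103) and stood at 61.8, 74.3 and 76.4 CPM in CD4. Lymphoma 53 was by far the highest library and lymphoma 72 fell among the controls. Its log2 fold change of 0.79 (SE 0.352) had an adjusted edgeR p of 0.0877, passed without lymphoma 72 (0.91, edgeR adjusted p 0.0359), and was 0.47 without lymphoma 53. Rpa3 ranged from 5.24 to 10.3 CPM (median 7.86) and its controls from 2.20 to 6.00 CPM, with a log2 change of 0.95 (SE 0.418; adjusted p in edgeR, 0.0804) that passed without CD4 2 (1.39, edgeR adjusted p 0.0376).

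Ligation, untangling and fork protection rose without exception among tested genes. Lig1, the ligase that joins lagging strand fragments, ranged from 716 to 965 CPM in lymphoma (median 838), against 94.7, 99.4 and 87.9 CPM in CD4, with a log2 change of 3.15 (SE 0.168; adjusted p in edgeR, 2.05e-07). Top2a, which separates intertwined daughter strands and is also a marker of late cell cycle, ranged from 737 to 1374 CPM (median 1191), against 98.1, 86.9 and 76.1 CPM, with a log2 change of 3.72 (SE 0.232; adjusted p in edgeR, 4.03e-07). Of the fork protection genes, the checkpoint mediator Clspn ranged from 152 to 205 CPM (median 182) against 12.9, 13.4 and 20.9 CPM in CD4, a log2 change of 3.51 (SE 0.227). Its fork partner Timeless ranged from 105 to 139 CPM (median 128) and stood at 25.9, 27.6 and 32.2 CPM in CD4, a log2 change of 2.15 (SE 0.168). Tipin, which binds Timeless, rose by 3.41 (SE 0.220), and Wdhd1, which ties polymerase alpha to the helicase, by 2.44 (SE 0.260).

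The 3′ ends of a few members lie over neighbouring genes. Fen1 (ENSMUSG00000024742, chr19:10199132-10204169, minus strand), the flap nuclease of lagging strand maturation, had 9, 9, 2, 5, 0 and 7 counts in the 6 lymphomas and 0, 0 and 0 in CD4, too few to test. In the GENCODE M21 annotation, 88.6% of its last 500 exon bases also lie in exons of another gene, where a read cannot be given to 1 gene without its strand. Those of Gins2 and Orc2 lay wholly in such exons. The share was 84.4% for Recql4, 89.2% for Orc4 and 99.8% for Rfc5, always with a gene on the opposite strand. It was 49.0% for Pole2, with a gene on the same strand, and 38.8% for Rfc4, with a gene on the opposite strand. Strand would not part the shared bases of Pole2. These 6 members above 50% compare with 5.49% of the tested genes. The strand setting is not given in the sources used here, so values of these genes are uncertain, and the part of the overlap in them was not tested.

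Set side by side, the 3 steps ranked firing, licensing, elongation by their median rise. The median over a step's genes of the log2 level relative to the CD4 mean was 2.83, 3.50, 3.28, 2.85, 3.15 and 3.99 for firing, with the lymphomas ordered by label from 34 to 86. For licensing it was 2.40, 2.07, 2.54, 2.23, 2.37 and 2.66, and for elongation 1.83, 2.03, 2.14, 1.97, 1.94 and 2.31, in the same order of libraries. Firing lay above licensing and licensing above elongation in 6 of 6 lymphomas, while the controls stayed between -0.35 and 0.18. All 6 lymphomas are set against the same CD4 mean, so they do not bear on the order independently. The controls are centred on that mean. The order is a description, since the steps were not tested against each other, and it depends on genes with few counts in CD4. Requiring at least 10 counts in every library leaves out Gins2, Ticrr and Recql4 from firing. The median log2 fold changes were then 1.65 over 7 firing genes, 2.37 over 15 licensing genes and 2.02 over 26 elongation genes. Firing was thus last by that filter.

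**Figure D4:**
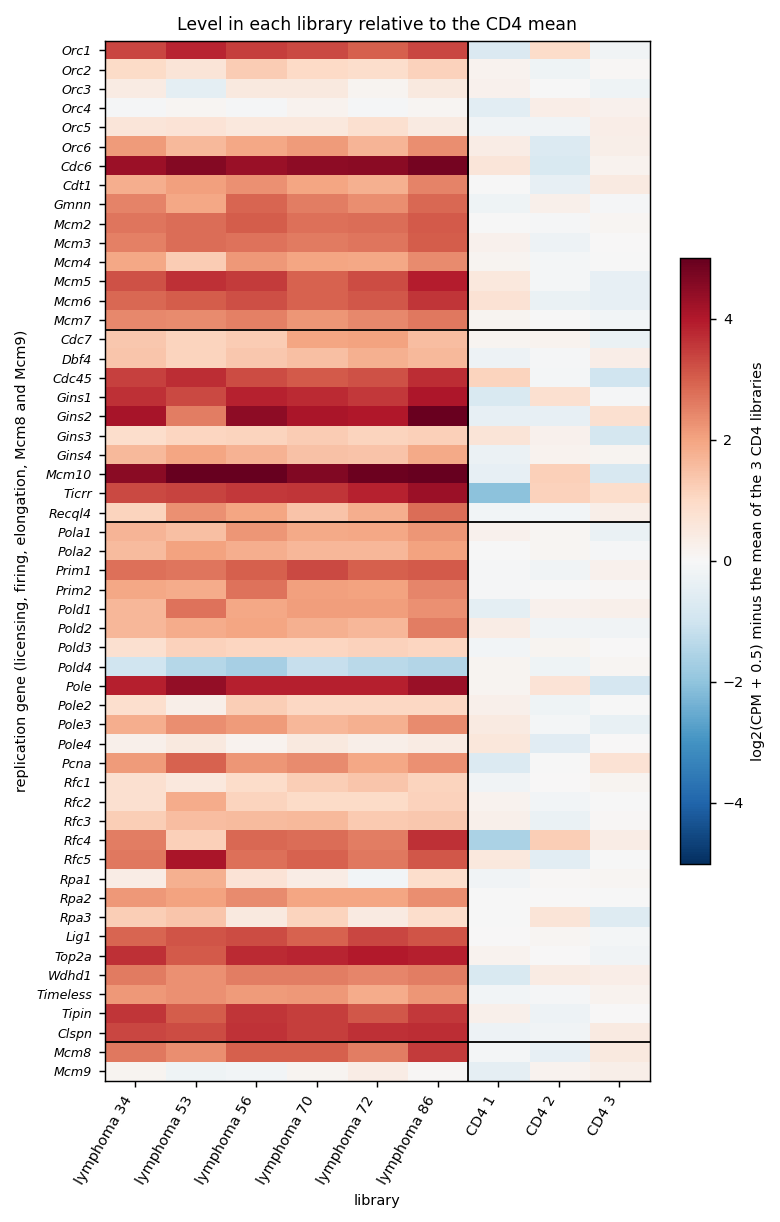
Level of each tested replication gene (rows) in each library (columns), as log2(CPM + 0.5) minus the mean of the 3 CD4 libraries, with red above and blue below that mean. Colours saturate at the ends of the scale. Lines part licensing, firing, elongation and Mcm8 with Mcm9, and the groups. Pold4 is the gene that is blue in all 6 lymphomas.

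To describe whether related replication genes changed unequally, 7 ratios of 2 genes were computed within each library, which removes library scaling. The ratios use the same counts as the fold changes above and are no separate evidence for them. The log2 ratio of Pold1 to Pold4 took the values 2.20, 3.69, 3.16, 2.78, 2.97 and 3.28 over the lymphomas, ordered by label, and -1.12, -0.08 and -0.32 over the controls. The ratio of Mcm2 to Mcm9 was 3.44 ± 0.314 (SD, n = 6) in lymphoma and 0.62 ± 0.366 (SD, n = 3) in CD4, and that of Orc1 to Orc2 -0.53 ± 0.400 (SD, n = 6) in lymphoma and -3.21 ± 1.24 (SD, n = 3) in CD4. For these 3 ratios the groups did not overlap, and each reached an exact two-sided permutation p of 0.0238, the smallest that 6 against 3 libraries allow. Adjusted over the 7 ratios the value was 0.0556, so none passed 0.05. Their differences between the groups were 3.52, 2.82 and 2.68 log2 units, higher in 6 of 6 lymphomas. The Orc1 to Orc2 difference was 2.12 without CD4 1 and 3.34 without CD4 2.

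The other 4 ratios did not separate the groups. The log2 ratio of Cdt1 to Gmnn was 1.16 ± 0.302 (SD, n = 6) in lymphoma and 1.64 ± 0.617 (SD, n = 3) in CD4 (exact permutation p = 0.214, adjusted 0.25), and lymphoma 53 stood at 1.74 among the controls at 1.83, 0.95 and 2.14. The subunits of the firing kinase gave a Dbf4 to Cdc7 log2 ratio of 1.70 ± 0.211 (SD, n = 6) in lymphoma and 1.79 ± 0.569 (SD, n = 3) in CD4 (exact permutation p = 0.69, adjusted 0.69). For Pole2 to Pole4 the ratio was -1.15 ± 0.411 (SD, n = 6) in lymphoma and -1.74 ± 0.345 (SD, n = 3) in CD4 (exact permutation p = 0.0714, adjusted 0.1). Rfc4 to Rfc1 gave -5.31 ± 0.701 (SD, n = 6) in lymphoma and -8.14 ± 3.09 (SD, n = 3) in CD4 (exact permutation p = 0.0476, adjusted 0.0833), where CD4 1 had 0 counts of Rfc4. The difference of that ratio, 2.83, became 1.08 without CD4 1 and 3.99 without CD4 2. A ratio that misses the threshold does not show equal change with so few controls.

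Among the lymphomas, the spread of the replication genes was compared with that of all genes. The median SD over the 6 lymphomas was 0.27 log2 units for the members and 0.47 for all genes tested, a description with no match for expression level. Lymphoma 86 was the highest of the 6 for 22 of 54 members (40.7%, against 19.3% of all tested genes), and lymphoma 53 was the lowest for 21 (38.9%, against 33.3%). Lymphoma 34 was the lowest for 16 members. Lymphoma 53 was also the highest for 11 members, among them Rfc5, Rfc2, Rpa1, Pcna and Pold1. The share over all tested genes was not computed for either of these counts. The library of lymphoma 53 had the fewest reads in genes of the 6 lymphomas, 11170704. It also had the lowest share of reads in genes, 38.7% against 43.6 to 49.1% in the others. Unaligned reads were 18.8% against 11.6 to 14.8%. The part of library quality in the values of lymphoma 53 was not tested. Mki67, a proliferation marker that is no member of the machinery, stood at 165 CPM in lymphoma 53, between 455 and 503 CPM in the other lymphomas, and at 44.9, 46.7 and 38.3 CPM in CD4. Across members, lymphoma 53 differed from the median of the other 5 by -0.03 log2 units in the median. Without lymphoma 53, 48 members were higher and 1 lower.

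The wider replication pathway was mixed. Of 40 rows for other replication genes, 39 were tested, 27 rose (24.7% of all genes tested), 1 fell (21.9% of all) and 11 did not reach the threshold, with a median log2 fold change of 1.02. In licensing and firing control 8 of 10 rose, led by Dtl, which targets Cdt1 for degradation, at 3.32 (SE 0.194) on the log2 scale. Dtl ranged from 156 to 214 CPM in lymphoma (median 179.9) and stood at 15.1, 17.9 and 21.6 CPM in CD4, with no overlap. The calls for Kat7 (edgeR adjusted p 0.0463), Mtbp (0.0463) and Lrwd1 (0.0142) were not stable. With 1 library left out, Kat7 was lost in 7 of 9 fits, Mtbp in 8 of 9 and Lrwd1 in 1, without CD4 3. Over all 19 alternatives, Kat7 and Mtbp were each lost in 16. These include stricter thresholds read on the main fit, an adjusted p under 0.01 and a change of at least 2-fold. Of the genes for fragment processing, clamp unloading and topology 9 of 13 rose. Chtf18, an alternative clamp loader subunit, showed the largest fitted change but had 0 counts in every control, so its lymphoma mean was at least 2.11-fold higher than 3 counts in the shallowest control library. Its counts were 14, 3, 13, 10, 8 and 18 in the 6 lymphomas.

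In nucleosome assembly behind the fork, 7 of 8 genes rose, led by Chaf1a, the large subunit of the CAF-1 chaperone, at 3.28 (SE 0.435). Chaf1a ranged from 10.8 to 30.8 CPM in lymphoma (median 20.9) and stood at 3.43, 1.80 and 1.28 CPM in CD4. In the replication stress checkpoint, 3 of 8 tested genes were higher and 1 lower, shares near those over all genes tested (24.7% and 21.9%). The effector kinase Chek1 rose by 3.66 (SE 0.241), from 4.20, 3.36 and 3.94 CPM in CD4 to between 38.0 and 58.8 CPM in lymphoma. The upstream kinase gene Atr did not reach the threshold at 0.23 (SE 0.178) (edgeR adjusted p 0.313). Its partner Atrip fell by 3.38 (SE 0.523, edgeR adjusted p 2.99e-04), and by 2.74 without CD4 2, the highest control. Atrip went from 28.1, 62.5 and 19.0 CPM in CD4 to between 1.52 and 8.77 CPM in lymphoma. Exon overlap with other genes was examined gene by gene only for members, so not for Atrip. Hus1 rose by 0.61 (SE 0.218), a call lost in 5 of 9 fits that left out 1 library and with RLE scaling, upper quartile scaling or no filter, and Rad1 by 1.15 (SE 0.218).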

How the data were processed

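RNA 3′ ends of 6 lymphomas and 3 CD4 samples were sequenced. The deposited table holds a raw read count per Ensembl gene and library, per the file headers, with 46078 genes and 5 summary rows of reads given to no gene. FastQC, HISAT2, SAMtools and HTSeq and the builds mm10 and GRCm38 are named in the submitters' processing notes, with no versions. The annotation and strand setting are not given in the sources used here. The number of columns of no sample was 0. Summary rows entered neither library sizes nor tests. Reads in no feature were 16.6 to 33.3% and ambiguous reads 3.74 to 5.96% of all reads.

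The test was edgeR's (edgeR 4.0.16, R 4.3.3): filterByExpr with a minimum count of 10, TMM scaling, glmQLFit (robust) and glmQLFTest without covariates on all 9 libraries, and Benjamini-Hochberg adjustment over 15401 genes at a threshold of 0.05. A standard error is the log2 change over the root of its F statistic. Where every control had at most 3 counts, a fold is given against 3 counts in the shallowest control. Log2 ratios of 2 genes used counts plus 0.5 and an exact two-sided permutation test (scipy 1.17.1). Positions and exon overlap came from GENCODE M21 (GRCm38), promoters from RefSeq (GRCm38.p6). The fit was also run on simulated data, with a smaller spread between libraries and fewer changed genes than here. That run does not show how the fit performs on these data. DESeq2 1.42.0 and limma 3.58.1 (voom) were alternatives, beside other scalings, filters, thresholds and leaving out each library.

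Levels or counts in both groups, by library or as a range, are given for the largest and smallest change of each sublist. They are also given for every member that fell or missed the threshold and for the genes of the ratios. The same holds for the largest rise and fall of each list of other replication genes. A few further members and pathway genes were named after their values were seen. The members and lists were chosen with earlier results of these data known. A floor of 3 counts is 0.184 to 0.360 CPM and covers counting error only, and the labels name no molecular identifiers.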

Additional observations from a re-analysis of the deposited data

Results flagged for a closer look

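In 8 of 64 values examined, 1 of the 6 lymphomas stood apart from the other 5. The gap, as a share of the group's whole range, exceeded Dixon's 95% critical value for 6 samples. Gap and range were taken on the log2 scale, while the levels below are given in CPM. Chance alone flags about 5% of groups, or 3.2 of 64. Lymphoma 53, the lymphoma library with the fewest reads in genes, accounts for 6 of the 8. It was low for the ORC subunit gene Orc3 at 31.2 CPM and for the topoisomerase gene Top2a at 737 CPM. It was high for the clamp loader genes Rfc2 at 237 CPM and Rfc5 at 193 CPM. Its log2 ratio of Cdt1 to Gmnn was 1.74 and its log2 ratio of Orc1 to Orc2 was 0.27, both the highest of the 6. The other cases are Pold2 in lymphoma 86 at 103 CPM, which was high, and Pold3 in lymphoma 34 at 78.1 CPM, which was low. Both genes code for accessory subunits of polymerase delta.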

How the results depend on the processing

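The alternatives include stricter thresholds, for which the main fit was read again. Of 1022 member values read under alternatives, 1008 kept their side of the threshold, 9 were no longer past it and 5 newly passed it. Of the 9, 3 came from the cut at an adjusted p under 0.01 and 2 from the cut at 2-fold. The sign turned in 17 of the values, 10 for Orc4 and 7 for Mcm9, neither of which passed the threshold, and in 0 of the values of members called. The number of members higher in lymphoma lay between 43 and 48 over 19 alternatives, with 1 lower in each. Leaving out 1 library gave 46 to 48 higher and a median log2 fold change of 2.10 to 2.29. The firing median dropped to 1.65 with at least 10 counts required in every library, which leaves out its low genes, and was 3.15 to 3.56 with 1 library left out. For the other replication genes, 21 to 29 were higher, and their median was 0.98 to 1.18 with 1 library left out, highest without CD4 1. Upper quartile scaling moved the median of all genes by -0.10 on the log2 scale, and the members' median over scalings was 2.05 to 2.15. Mcm9 was the only tested member whose sign turned under another scaling. It turned with RLE and with upper quartile scaling, and did not with library size alone. The difference in the Dbf4 to Cdc7 log2 ratio ranged from -0.29 to 0.24 with 1 library left out. Leaving out 1 library limits the exact test to p values of at least 0.0357 with 5 lymphomas and 0.0714 with 2 controls. The labels do not give a separate origin for any of the lymphomas. As a further alternative, lymphomas 34, 70 and 72 were averaged into 1 library. Reading the fit without lymphoma 53, 1 of the planned fits that leave out a library, on its own was chosen after seeing the data, as was the exon overlap. No paired analysis was possible because the groups share no replicate number that pairs their samples.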
